A study of Mus musculus with 2 samples.

Results

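Myelinating oligodendrocytes were taken from the 2 single-cell libraries as the barcodes that carried at least 4 UMIs (unique molecular identifiers, 1 per captured RNA molecule) of Mog, Mag, Mobp, Cldn11, Opalin and Ermn together. Each also had at least 500 genes, at most 10% mitochondrial UMIs and at most 2 UMIs of C1qa, C1qb, Cldn5 and Col1a2, which mark microglia, endothelium and fibroblasts. The rule held for 135 of 18827 kept barcodes, 64 of 8461 after standard and 71 of 10366 after FLASH irradiation. Members were thus chosen by the measured counts of these 6 genes, whose height in them is a description and not a result.

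The tumours came from Math1-Cre;SmoM2fl/fl mice, in which the Math1 promoter drives Cre in the cerebellar granule lineage and Cre switches on SmoM2, an activated Smoothened. Both libraries carried this genotype and both were irradiated with protons, 1 at the standard dose rate and 1 by FLASH, an ultra-high dose rate, so the study gives no unirradiated library. The dose is 5 Gy in the sample labels and 10 Gy in the series design, and neither the mice per library nor the time from irradiation to harvest is stated in the sources. After perfusion (PBS with EDTA), tumours were dissociated by collagenase-II and DNase and strained at 100 μm, and V3 chemistry of 10x Genomics was used for the libraries. With 1 library per condition no difference has a replicate check: every value below compares 2 libraries, and intervals (95%) cover counting error only.

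Oligodendrocytes wrap axons of the central nervous system in myelin, a stacked membrane of basic and membrane proteins, galactolipid and much cholesterol that the cell makes largely itself. They arise from precursors that pass through a short newly formed, or premyelinating, stage in which Enpp6, Bmp4, Gpr17, Neu4 and Tnr are on before the full set of myelin genes. Mature cells later differ in genes such as Ptgds, Apod, Klk6, S100b and Opalin, and they feed axons with metabolites and hold much of the iron of the brain. Of the 6 chosen genes, Mog encodes a glycoprotein of the outer myelin surface, Mag an adhesion protein on the axonal side, Mobp a basic protein, Cldn11 the claudin of myelin tight junctions, Opalin a sialylated membrane protein and Ermn a cytoskeletal protein.

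The windows of 250 bases before the starts of 3 of the chosen genes and of Hmgcs1 are shown because these genes carry the contrasts that follow: Mag and Mobp make up different parts of the rule count in different barcodes, Opalin marks a subset of the mature ones, and Hmgcs1 opens the cholesterol pathway. Sequences and starts are those of RefSeq on GRCm38.p6. Each runs 5′ to 3′ on the gene's strand up to the base before the start, and capitals mark ACAAAG, the core letters bound by SOX proteins such as SOX10, or its reverse complement CTTTGT. In Hmgcs1 the capitals mark TCACNCCAC, letters of the sterol regulatory element.
Mag, chr7:30914864-30915113, minus strand: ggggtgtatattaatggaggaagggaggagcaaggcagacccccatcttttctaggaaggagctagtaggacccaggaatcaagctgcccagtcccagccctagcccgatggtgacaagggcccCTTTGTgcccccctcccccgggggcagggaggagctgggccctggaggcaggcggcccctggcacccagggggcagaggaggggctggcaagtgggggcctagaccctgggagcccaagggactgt
Mobp, chr9:120149492-120149741, plus strand: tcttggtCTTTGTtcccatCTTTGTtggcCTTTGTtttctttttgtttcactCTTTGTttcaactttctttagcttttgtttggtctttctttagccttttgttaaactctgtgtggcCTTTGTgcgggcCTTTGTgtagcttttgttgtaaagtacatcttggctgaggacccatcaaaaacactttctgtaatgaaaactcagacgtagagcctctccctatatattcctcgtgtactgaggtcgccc
Opalin, chr19:41077114-41077363, minus strand: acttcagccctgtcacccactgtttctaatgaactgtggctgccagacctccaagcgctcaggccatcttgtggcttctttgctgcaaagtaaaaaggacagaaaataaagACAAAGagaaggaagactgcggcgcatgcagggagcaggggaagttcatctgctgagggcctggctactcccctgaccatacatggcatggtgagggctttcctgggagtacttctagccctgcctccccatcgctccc
Hmgcs1, chr13:119690101-119690350, plus strand: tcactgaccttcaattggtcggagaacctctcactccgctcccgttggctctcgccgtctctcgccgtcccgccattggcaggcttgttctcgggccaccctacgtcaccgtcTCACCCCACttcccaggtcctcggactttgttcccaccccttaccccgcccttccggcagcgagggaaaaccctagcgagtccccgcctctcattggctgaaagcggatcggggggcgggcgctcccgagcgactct
Searched on both strands, ACAAAG was found once in Mag, 126 bases before the start, once in Opalin, 139 bases before it, and at 6 places in Mobp, and it was absent from the windows of Mog, Cldn11 and Ermn. Of all 32851 RefSeq windows of this length, 16.5% hold it. TCACNCCAC lay 137 bases before the Hmgcs1 start and occurs in 1.05% of windows. It was found in 1 of the 15 cholesterol synthesis genes that had a window. The bases after this Hmgcs1 start were not found in a GENCODE M21 transcript, so the start may not be the one used. These matches describe letters only.

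The deposited matrices held 12867 barcodes with 55532202 UMIs after standard and 14269 with 63178900 after FLASH irradiation. Members had 854 to 23873 UMIs in the standard library (median 6335.5) and 903 to 25144 in the FLASH library (median 6502), against medians of 5700 and 5328 in the other kept barcodes. Their mitochondrial share had medians of 4.30% and 4.46%. The libraries shared 46 barcode sequences, 22 of them kept, and none belonged to a member in both.

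Myelin genes outside the rule also stood high in members, although the choice of barcodes fixes much of their height. Values are UMIs per 1000000 UMIs, summed over members (CPM), given as standard and then FLASH. Cnp, an enzyme of the cytoplasmic channels of myelin, stood at 4128 and 3497 CPM in members and at 13.0 and 13.7 in other kept barcodes, and had UMIs in 54 of 64 and 62 of 71 members. Mal, a raft protein of myelin, stood at 2486 and 2443 CPM, but had UMIs in only 20 of 64 and 17 of 71 members. Ugt8a, which makes galactosylceramide, stood at 1143 and 1228 CPM, with UMIs in 48 and 44 members. Tspan2 and Sirt2, a tetraspanin and a tubulin deacetylase of myelin, were also among the 15 genes highest in members over other barcodes. So was Enpp6, a gene of the newly formed stage, at 914 and 871 CPM. Mbp, the basic protein that compacts myelin, reached 6406 and 4907 CPM, and it also stood at 104.7 and 144 in the other barcodes.

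Most marker lists of other cell types stood lower in members than in other kept barcodes. The rule limits C1qa, C1qb, Cldn5 and Col1a2, so these 4 are left out here. The other 10 microglial markers summed to 9.17 and 13.8 CPM in members and to 1071 and 1007 in other barcodes, with 6 and 5 of the 10 at 0. The other 6 endothelial markers had 6 and 4 at 0 and the other 6 fibroblast markers 5 and 6, and the Schwann cell list stood at 16.5 and 10.3 CPM against 21 and 17.2. The oligodendrocyte precursor list was higher in members, at 1220 and 1129 CPM against 501 and 520. Its genes Gpr17, Neu4, Tnr and Lhfpl3 were higher in members, and Pdgfra, Cspg4, C1ql1 and Cacng4 were lower. The list of Purkinje and other neurons was also higher in members, at 66.0 and 43.1 CPM against 5.50 and 4.55, with 4 and 5 of its 6 genes at 0. It rested on Pcp2, a Purkinje cell gene, of whose 31 and 25 UMIs 23 and 21 lay in 1 shallow barcode of each library, and none in a mature one. The 5 ependymal markers stood at 7.34 and 1.72 CPM against 1.13 and 1.19, with 4 of 5 at 0 in each library. The 14 granule lineage markers of the tumour stood at 842 and 1416 CPM against 4721 and 4669 in other barcodes. The cycling list stood at 376 and 1514 CPM, and Cre at 110 and 350. Haemoglobin stood at 34.9 and 6642 CPM, of which 1 FLASH barcode held 99.2%.

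The rule count ran from its minimum of 4 to 776 UMIs. A sum of 0 was found in 7739 (91.5%) and 9282 (89.5%) kept barcodes, and the remaining 8.53% and 10.5% had at least 1 UMI of a rule gene. Barcodes just outside, at a sum of 3, numbered 21 and 35, with median depths of 5893 and 6667 UMIs. Just inside, at 4, there were 11 and 13, with median depths of 1675 and 4232 UMIs. At a sum of 12 or more there were 36 and 32. The granule markers took up at least 0.1% of UMIs in 18 of the 21 and 32 of the 35 barcodes just outside, and in 10 of the 11 and 9 of the 13 just inside. Thus most members near the minimum carried tumour RNA beside a few myelin UMIs.

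Members were therefore described in 4 ranges, whose limits were set after the data had been seen and which are ranges of a continuous measure, not cell types. Barcodes under 4000 UMIs were called shallow. Of the deeper ones, those with granule markers at 0.1% of UMIs or more were called tumour-marker-rich. Those with Enpp6, Tnr, Bmp4, Gpr17, Neu4, Itpr2 and Bcas1 together at 0.25% or more were called newly formed, and the rest mature. Within a factor of 1.5 of each limit lay 9 of 64 and 6 of 71 barcodes for depth, 1 of 37 and 1 of 44 for the granule markers, and 2 of 28 and 1 of 24 for the newly formed genes.

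The mature range held 11 (17.2%) and 9 (12.7%) members, with rule sums of 110 to 355 and 157 to 776, and gave 55.8% and 71.8% of all rule UMIs. The newly formed range held 17 (26.6%) and 15 (21.1%), with rule sums of 6 to 318 and 7 to 117. Its median depth was 13616 and 13380 UMIs, against 13435 and 17805 in the mature range. The tumour-marker-rich range held 9 (14.1%) and 20 (28.2%), with median rule sums of 7 and 5.5, and gave 13.1% and 31.9% of the UMIs of members but 4.31% and 6.06% of the rule UMIs. The shallow range held 27 (42.2%) and 27 (38.0%). By exact binomial intervals the tumour-marker-rich share was 6.64% to 25.0% in the standard and 18.1% to 40.1% in the FLASH library, and these overlap.

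**Figure D1:**
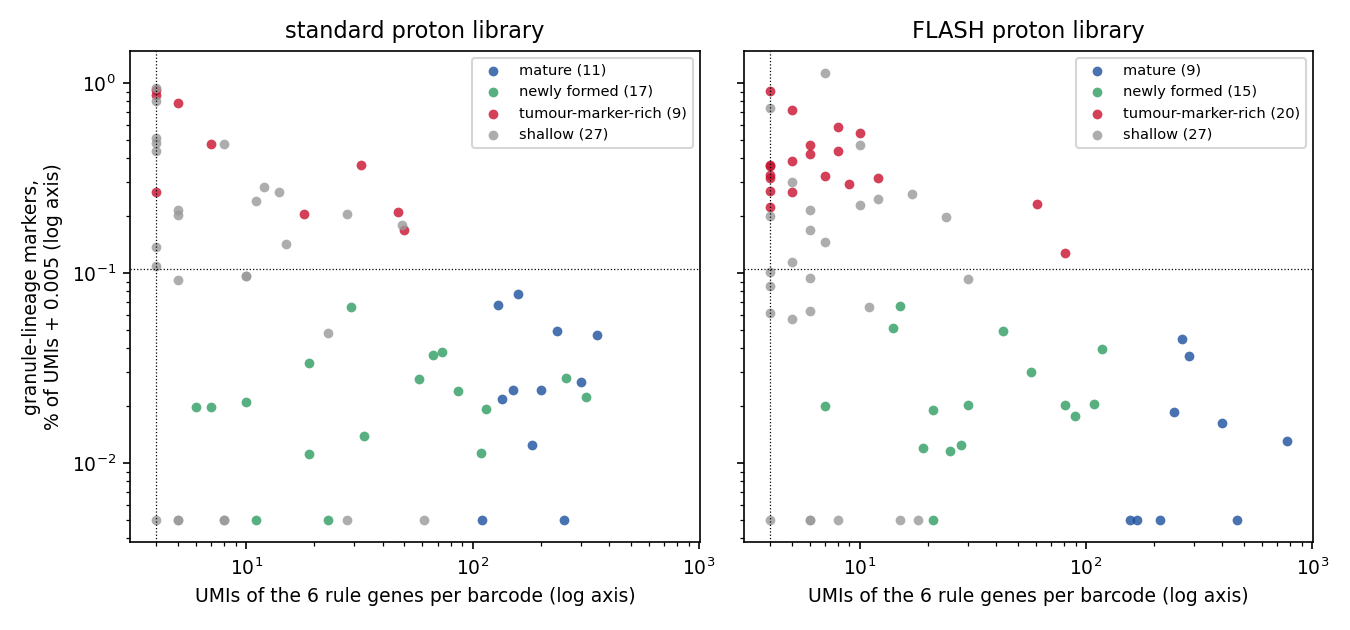
Each point is 1 member barcode, in the standard (left) and FLASH (right) library: the x axis is its UMIs of the 6 rule genes (log scale) and the y axis its granule lineage marker UMIs as a percent of all UMIs plus 0.005 (log scale), with colours for the 4 ranges. Mature barcodes lie at rule sums of 110 or more, and the tumour-marker-rich ones, 9 and 20, lie mostly near the minimum of 4.

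The granule markers summed to 288 and 137 CPM in the mature range and to 172 and 225 in the newly formed range, but to 3809 and 3560 in the tumour-marker-rich range, where the limit itself fixes a high level. Cycling genes, which the limit did not use, followed: 173 and 52.3 CPM in the mature range, 128 and 135 in the newly formed range, and 1237 and 4372 in the tumour-marker-rich range. The transgenes Cre and SmoM2EYFP together stood at 689 and 1060 CPM there, against 11.5 and 6.53 in the mature range. Mobp alone, with 3 or more UMIs, made up at least 75% of the rule UMIs in 4 of the 9 and 9 of the 20 tumour-marker-rich barcodes, in 6 of 27 and 7 of 27 shallow ones, and in none of the mature or newly formed ones. A rule sum of 10 or less was found in 5 of the 9 and 17 of the 20. Of these barcodes 0 and 2 had one of the highest doublet scores of their library, and Mobp stood at 8.56 and 14 CPM in the other kept barcodes. The part of doublets and of free RNA in this range was not tested.

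Mature and newly formed barcodes differed in most of the oligodendrocyte lists. Among 2711 genes with enough UMIs (at least 50 over both libraries and 50 CPM in 1), 233 (8.59%) were at least 2-fold higher in the mature range in both libraries and 381 (14.1%) at least 2-fold lower. Of the myelin structure genes 15 of 30 were higher and 5 lower, and of the list of mature oligodendrocyte states 19 of 22 were higher and none lower. The precursor and newly formed list, once the genes that set the limit are left out, had 11 of 12 lower and none higher. Lipid enzymes had 7 of 17 higher, iron and axonal support genes 7 of 11, and transcription factors 3 higher and 5 lower of 17. The limit between the ranges used genes of the same barcodes, so these counts describe the ranges and test nothing.

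The 30 myelin structure genes together stood at 98571 and 114023 CPM in the mature, 50526 and 42616 in the newly formed, 43989 and 48588 in the shallow and 21701 and 16043 in the tumour-marker-rich range. Barcodes of precursor type, the 54 and 103 that failed the rule but had at least 4 UMIs of Sox10, Gpr17, Neu4, Tnr, Lhfpl3 and Cspg4, stood at 4576 and 4691, and the kept non-members as a whole at 1552 and 1544. Shallow members stood nearer to the newly formed range than to the precursors in this sum, although their granule markers stood at 1874 and 2282 CPM. Precursor-type barcodes had fewer than 4 rule UMIs by definition and shallow members at least 4. This order is thus partly set by the choice of barcodes.

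The sharpest contrast was Mal (2, 127633226 to 127656695), which had 1304 UMIs in 11 mature barcodes and none in 17 newly formed ones of the standard library. Counted against a floor of 3 UMIs over the group, that is at least 624-fold higher. In the FLASH library 1375 UMIs stood against 1. Gjb1, a connexin of oligodendrocyte gap junctions, was at least 43.1-fold and 32.6-fold higher, Ndrg1 at least 57.9-fold and 33.5-fold, and Hapln2, a matrix linker at nodes of Ranvier, at least 33.5-fold and 16.9-fold. Car2, the carbonic anhydrase of oligodendrocytes, was 129-fold (interval 50.1 to 477) and 70.4-fold (23.7 to 345) higher. Klk6, a secreted protease, was at least 57.5-fold and 27.8-fold higher. In the other direction stood Tcf7l2, a transcription factor of the premyelinating stage, with 232 UMIs in newly formed and none in mature standard barcodes, at least 53.8-fold, and 235 against 2 after FLASH. Sox6, a factor that holds precursors back from differentiation, was at least 6.27-fold and 9.20-fold higher in the newly formed range, and Ptprz1, a receptor phosphatase of precursors, at least 10.7-fold and 12.8-fold.

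The rule genes themselves appeared in a different mix. Mag made up 49.6% and 52.1% of the rule UMIs of newly formed barcodes and 25.9% and 31.8% of those of mature ones, and Cldn11 27.8% and 31.9% against 13.7% and 13.9%. Mog went the other way, with 7.17% and 6.67% against 21% and 19.1%, as did Ermn (2, 58045113 to 58052864), with 8 UMIs and none in newly formed against 245 and 256 in mature barcodes. Mbp, which the rule did not use, stood higher in newly formed barcodes, at 8335 and 6694 CPM, than in mature ones, at 4323 and 4390 CPM.

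Within the newly formed range the barcodes formed a gradient. Barcodes with a larger share of rule UMIs had more Mbp, with a Spearman correlation of 0.90 over 32 barcodes. Ugt8a did so at 0.82, and the small GTPase Rras2 at 0.78. Bmp4, a secreted signal of this stage, ran the other way at -0.77, the sialidase Neu4 at -0.78, the orphan receptor Gpr17 at -0.69 and the transcription factor Nkx2-2 at -0.81. Enpp6, at 0.43, and Tcf7l2, at 0.28, followed the rule share less closely, although Enpp6, Bmp4, Neu4 and Gpr17 all helped to set the limit of the range. Both libraries gave the same signs, for example -0.81 and -0.86 for Nkx2-2 and 0.91 and 0.88 for Mbp. Barcodes of 1 library share its depth and its free RNA, and parts of 1 total are bound to move against each other, so these are descriptions with no test.

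Split at a rule sum of 40, the 18 lower barcodes had Bmp4 in all 18 (median 9.5 UMIs) and Neu4 in 16, with Mobp in 4. The 14 higher barcodes had Bmp4 in 4 and Neu4 in 5, with Mobp in 12. Median Mag counts were 9.5 and 44, and median Mbp counts 57.5 and 170.5. Even at the upper end Ermn was nearly missing, with UMIs in 2 of the 14 barcodes and 6 at most.

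**Figure D2:**
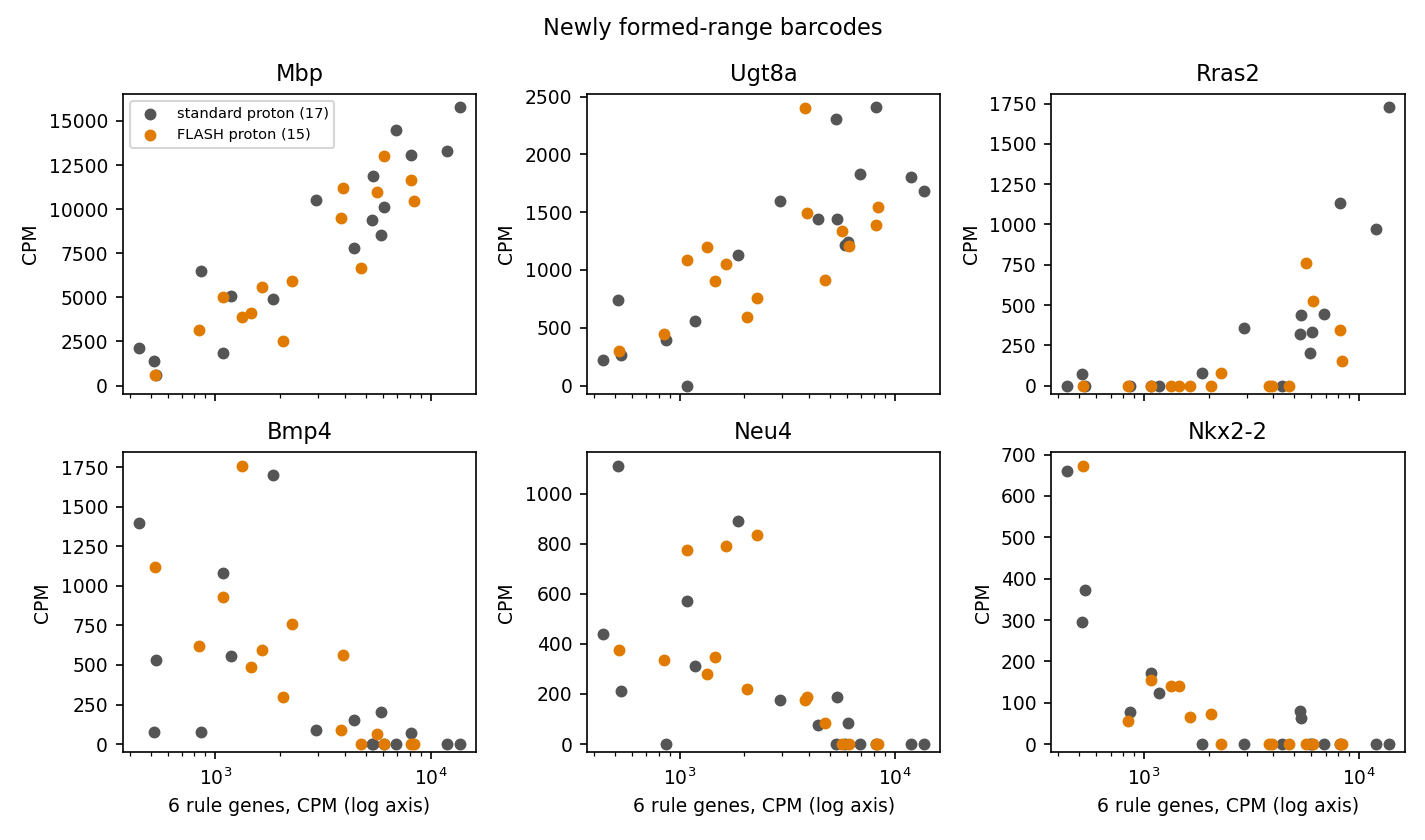
Each point is 1 of the 32 newly formed barcodes (both libraries by colour), with the CPM of the 6 rule genes together on the x axis (log scale) and the CPM of 1 gene on the y axis of each panel. Mbp, Ugt8a and Rras2 climb with the rule genes, and Bmp4, Neu4 and Nkx2-2 descend to 0.

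The mature barcodes differed among themselves in lipid genes. Apoe, a lipid carrier that astrocytes and microglia make in large amounts, had 0 to 289 UMIs in the 11 standard barcodes (median 149) and 0 to 146 in the 9 FLASH barcodes (median 1). The 22 genes of cholesterol synthesis summed to 107 to 9090 CPM per standard barcode (median 725) and to 737 to 12477 per FLASH barcode (median 4613). The levels did not overlap: in the 11 barcodes with at least 20 Apoe UMIs the cholesterol list had 2 to 24 UMIs, and in the other 9, with at most 5 Apoe UMIs, it had 27 to 239. Both kinds occurred in both libraries, as 8 and 3 barcodes with Apoe and 3 and 6 without. The Spearman correlation of both levels was -0.80 over the 20 barcodes, -0.52 within the standard and -0.78 within the FLASH library. Apoe had a correlation of -0.24 with UMIs per barcode over both libraries and of -0.63 within the FLASH library. The cut at 20 was chosen after the values had been seen. The 8 astrocyte markers summed to 77.0 and 124 CPM in all members and to 341 and 376 CPM in other kept barcodes, and Apoe stood at 2893 and 2961 CPM in the latter. The part of RNA from astrocytes or microglia in the Apoe counts was not tested.

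**Figure D3:**
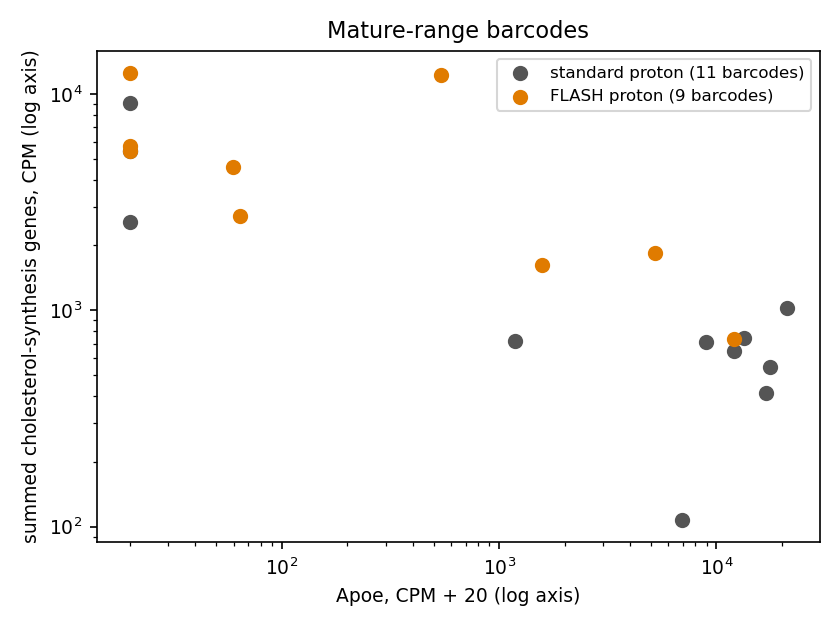
Each point is 1 of the 20 mature barcodes, coloured by library, with Apoe CPM plus 20 on the x axis and the summed CPM of 22 cholesterol synthesis genes on the y axis, both on log scales. Barcodes with Apoe lie at 107 to 1836 CPM of cholesterol genes and those with little or none at 2562 to 12477.

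A second split ran through Klk6 and Opalin. Klk6 reached at least 5 UMIs in 5 of 11 and 3 of 9 mature barcodes, and these had a median of 56 UMIs of S100b, a calcium-binding protein, and 15 of Anxa5, an annexin. The others had medians of 2.5 and 1. Opalin had a median of 0 in the barcodes with Klk6 and of 10.5 in the rest, and the Spearman correlation of Klk6 and Opalin was -0.70 over 20 barcodes. Mal was low in 2 FLASH mature barcodes, with 0 and 12 UMIs where the other barcodes had 50 to 308, and Fth1, the ferritin heavy chain, had 3 and 20 UMIs there and at least 115 elsewhere. The second of these was the barcode with 15.2% haemoglobin and the highest rule sum, 776.

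As for FLASH against standard irradiation, members made up 0.756% (0.583 to 0.965) of kept barcodes in the standard and 0.685% (0.535 to 0.863) in the FLASH library. The log2 ratio of these shares was -0.14, with an interval of -0.65 to 0.37. Thinned to 2000 UMIs each, 35 of 6910 (0.507%, 0.353 to 0.704) and 25 of 8652 (0.289%, 0.187 to 0.426) barcodes met the rule, a log2 ratio of -0.81 with an interval of -1.61 to -0.03. The 1551 and 1714 shallower barcodes were left out there, and without thinning the same barcodes held 48 (0.695%) and 48 (0.555%) members. The interval of the ratio thus included 0 without thinning and lay just below 0 in this random draw. The draw was not repeated, and the interval does not cover its spread.

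The rule genes summed over members stood at nearly the same level in both libraries. Mog had 626 and 665 UMIs (1148 and 1147 CPM), Mag 1341 and 1453 (2460 and 2505 CPM), and Mobp 824 and 863 (1512 and 1488 CPM). Cldn11 stood at 1369 and 1274 CPM, Opalin at 297 and 271, and Ermn at 490 and 459. The 6 log2 ratios, FLASH over standard, ran from -0.13 to 0.03. This near equality depends on the barcodes included. Without the tumour-marker-rich range all 6 were above 0, from 0.24 to 0.36, and the sum stood at 8007 and 9849 CPM.

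Of 3682 genes with enough UMIs in members, 97 (2.63%) were at least 2-fold higher and 49 (1.33%) at least 2-fold lower in the FLASH library, together 146 (3.97%). In the other kept barcodes none of 3376 genes was 2-fold apart. Those sums pool 18692 barcodes against 135 members, so counting error and single barcodes weigh far less in them. The counts are therefore not like for like. The 10 highest ratios included 7 genes of dividing cells. Hist1h1b, a linker histone of S phase, had 34 and 334 UMIs (62.4 and 576 CPM, log2 ratio 3.19). Mki67, the proliferation antigen, had 18 and 137 UMIs (2.80), Top2a, the topoisomerase that untangles chromosomes, 18 and 134 (2.77), and Ube2c, a ubiquitin enzyme of mitosis, 10 and 92 (3.05). Prc1, a midzone protein of the spindle, had 5 and 56 UMIs (3.27), Cenpf, a kinetochore protein, 12 and 99 (2.90), and the histone Hist1h2ap 16 and 107 (2.61). For each of these 7 genes 1 barcode held between 20.4% (Top2a) and 39.2% (Ube2c) of the UMIs.

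These genes moved with the tumour-marker-rich barcodes, which made up 13.1% of member UMIs in the standard and 31.9% in the FLASH library. Without that range the ratios of Hist1h1b and Top2a were -0.09 and -0.51, those of Mki67 and Prc1 both -0.96, that of Ube2c -0.39 and that of Hist1h2ap -1.88, while Cenpf stayed above 0 at 0.26. Tbata, which stood at 232 and 246 CPM in the other kept barcodes, had 6 and 55 UMIs in members, and its ratio was 3.0 and, without that range, 1.0. Mroh2a, at 8 and 62 UMIs (2.79), and the Polycomb gene Pcgf2, at 6 and 46 (2.75), had 47.1% and 80.8% of their UMIs in 1 barcode. Over the remaining barcodes 2957 genes had enough UMIs, of which 22 (0.744%) were at least 2-fold higher and 34 (1.15%) lower, together 56 (1.89%). The higher counts of cycling genes among members after FLASH were thus not seen without the tumour-marker-rich barcodes.

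Of the 10 lowest ratios, 2 had over 1000 UMIs in the standard library. The first was Ptgds, the prostaglandin D synthase (2, 25466709 to 25470046), with 2257 and 592 UMIs, 4140 and 1021 CPM, a log2 ratio of -2.02 (interval -2.15 to -1.89), with 31.1% of all its UMIs in 1 barcode. The second was Apoe, with 1501 and 282 UMIs, 2754 and 486 CPM, a ratio of -2.50 (-2.69 to -2.32), while in the other kept barcodes it stood at 2893 and 2961 CPM. Without the tumour-marker-rich range both remained lower, at -1.72 and -2.21. That range held only 8 and 24 Ptgds UMIs and 11 and 13 Apoe UMIs, so its removal could change little but the totals. The 11 and 9 mature barcodes held 2062 and 458 of the Ptgds UMIs and 1442 and 241 of the Apoe UMIs. Of these barcodes 8 and 3 had at least 20 Apoe UMIs, and 7 and 4 had at least 20 Ptgds UMIs. The part of this mix of barcodes in both ratios was not tested. Sparc, a secreted matrix protein, stood at 229 and 53.5 CPM (-2.08), and Rhoc, a small GTPase, at 59 and 18 UMIs (-1.77). Crip1, a LIM domain protein, had 72 UMIs after standard and 0 after FLASH irradiation, at least 25.5-fold lower against a floor of 3 UMIs, but 65 of the 72 lay in 1 mature barcode. Zc3h7b (202 and 32.8 CPM) and Gadd45g also rested on 1 barcode for 71.3% and 59.0% of their UMIs. Nol4l had 94 and 22 UMIs (-2.16). Hebp1, a haem-binding protein, and Sap30bp had 59 and 17 and 47 and 16 UMIs.

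**Figure D4:**
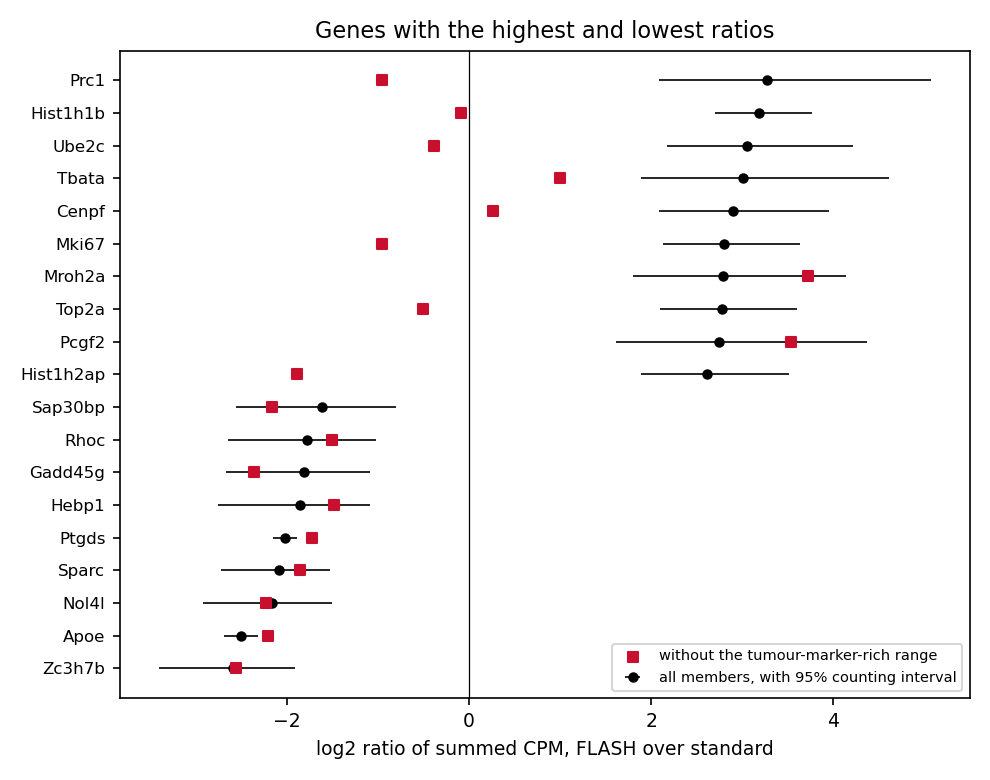
Log2 ratios of FLASH over standard for the 19 of the 20 genes highest and lowest in members that have UMIs in both libraries: black points are all members with 95% counting intervals and red points members without the tumour-marker-rich range. For cycling genes such as Mki67 and Hist1h2ap the red points lie under 0, and for Apoe and Ptgds both colours lie below -1.5.

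The myelin structure list had a median log2 ratio of -0.23 over its 30 genes, beside 0.03 over all genes with enough UMIs, with 25 genes below 0, 5 above and none 2-fold apart. This median was 0.02 without the tumour-marker-rich range and 0.15 in the mature range, so its sign turns with the barcodes included. Tppp3, a tubulin-binding protein, stood at 211 and 105 CPM (-0.999), Hapln2 at 132 and 69.0 (-0.93), and the axonal adhesion protein Cntn2 at 134 and 75.9 (-0.81). Unlike most myelin genes, Cntn2 stood higher in the other kept barcodes, at 223 and 203 CPM. The part of RNA from those barcodes in its counts was not tested. Cryab, a small heat shock protein of oligodendrocytes, stood at 1746 and 933 (-0.90), at -0.66 without the tumour-marker-rich range, at -0.67 in the mature and at -0.89 in the newly formed range. Lipid enzymes had a median of -0.10 over 20 genes, 9 above 0 and 11 below. Agps, of ether lipid synthesis, stood at 40.4 and 69.0 CPM (0.76), and Aspa, which frees acetate for lipid synthesis, at 183 and 128 (-0.52).

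In the mature range the summed levels of all 6 rule genes, which chose the barcodes, were higher after FLASH. Mag stood at 3299 and 6180 CPM (0.91), Cldn11 at 1738 and 2705 (0.64), Mobp at 2867 and 4207 (0.55) and Mog at 2671 and 3711 (0.47). The rule list ran from 9668 to 16094 CPM per standard barcode (median 12864) and from 11655 to 30862 per FLASH barcode (median 16463), so the 11 and 9 barcodes overlap. Mag had 946 UMIs in the FLASH barcodes and 623 without the haemoglobin-rich one. Without it Mag stood at 4870 CPM (0.56), Mobp at 3486 (0.28) and Cldn11 at 2611 (0.59), and Opalin went from 0.34 to -0.31. Of 1022 genes with enough UMIs in this range 40 (3.91%) were at least 2-fold higher and 38 (3.72%) lower, together 78 (7.63%). Nfasc, the neurofascin of paranodes, stood at 391 and 1483 CPM (1.91) and Ugt8a at 1514 and 2737 (0.85), while Mbp stood at 4323 and 4390 (0.02). Sema6a, a semaphorin, stood at 138 and 575 (2.04).

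In the newly formed range the rule genes lay the other way: Mobp stood at 685 and 286 CPM (-1.25), Mog at 357 and 225 (-0.65), Mag at 2464 and 1764 (-0.48) and Cldn11 at 1382 and 1077 (-0.36). The rule list ran from 441 to 13726 CPM per standard barcode (median 4399) and from 523 to 8356 per FLASH barcode (median 2279), which overlap over most of their length. Mbp stood at 8335 and 6694 CPM (-0.32). Tnr, the tenascin of this stage, stood at 930 and 1503 (0.69) and Enpp6 at 1539 and 1789 (0.22). Myelin structure had 16 of 20 genes below 0 and a median of -0.31. Of 1681 genes 17 (1.01%) were at least 2-fold higher and 25 (1.49%) lower, together 42 (2.5%). The difference between mature and newly formed barcodes in this contrast was not tested.

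Among the lists with more than 10 genes with enough UMIs, cholesterol synthesis had the largest share on 1 side of 0. In members 17 of its 22 genes had enough UMIs, 16 above 0 and 1 below, with a median log2 ratio of 0.36 and none 2-fold apart. Among all 3682 genes 1949 were above 0 and 1733 below. The list summed to 2036 and 2821 CPM. Hmgcs1, the synthase at the entry of the pathway, stood at 316 and 507 CPM (0.68, interval 0.41 to 0.96), Idi1, the isomerase of isoprenoid units, at 169 and 274 (0.70), and Insig1, a sensor that is itself a target of the pathway, at 49.5 and 84.5 (0.76). In other kept barcodes 8 genes had enough UMIs, all 8 above 0, with a median of 0.10, and Hmgcs1 stood at 65.8 and 70.5 CPM.

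The mature range showed the larger values. All 9 cholesterol genes with enough UMIs were above 0, 6 of them 2-fold, with a median of 1.24. Among all 1022 genes of this range 463 were above 0 and 559 below, and 3.91% were at least 2-fold higher. Hmgcs1 stood at 345 and 1039 CPM (1.58, interval 1.15 to 2.04), Cyp51, the lanosterol demethylase, at 121 and 542 (2.14), and Msmo1, a sterol methyl oxidase, at 161 and 385 (1.24). These sums rest on few barcodes, and the 3 standard barcodes without Apoe reached 9090 CPM, inside the range of the FLASH barcodes. In barcodes with under 20 Apoe UMIs, 3 and 6, the list had medians of 5440 and 5587 CPM. In those with at least 20, 8 and 3, the medians were 680 and 1619 CPM. The part of this mix of barcodes in the ratios was not tested. The newly formed range had a median of 0.12 over 7 genes, 4 above 0 and 3 below, with Hmgcs1 at 0.12.

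Genes of mature oligodendrocyte states lay lower in the FLASH library. Of 23 genes with enough UMIs 20 were below 0 and 6 of those at least 2-fold, with a median of -0.69. Among all 3682 genes 1733 were below 0 and 1.33% at least 2-fold lower. The list summed to 14520 and 8157 CPM. Apod, a lipocalin, stood at 1136 and 483 CPM (-1.23), Car2 at 692 and 288 (-1.26), and Serpinb1a, a protease inhibitor, at 71.5 and 32.8 (-1.11). In the mature range the median was -0.69 as well, with 18 of 22 genes below 0. There Ptgds stood at 11870 and 2992 CPM (-1.99), Apod at 3402 and 1744 (-0.96) and S100b at 2026 and 1169 (-0.79). Without the haemoglobin-rich barcode Ptgds stood at -1.73, Apod at -0.73 and S100b at -0.54. The newly formed range had 5 genes with enough UMIs and a median of -0.01. Of the list for iron and axonal support 9 of 12 genes were below 0 in members (median -0.34). Fth1 stood at 7975 and 4930 CPM (-0.69), Trf, the transferrin gene, at 1385 and 859 (-0.69), and Glul, the glutamine synthetase, at 589 and 345 (-0.77). In the mature range Fth1 stood at 22278 and 14927 (-0.58) and Trf at 3938 and 2985 (-0.40), or at -0.33 and -0.18 without the haemoglobin-rich barcode. The mature range gave 31.9% and 26.4% of member UMIs, and the part of that difference in these sums was not tested.

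**Figure D5:**
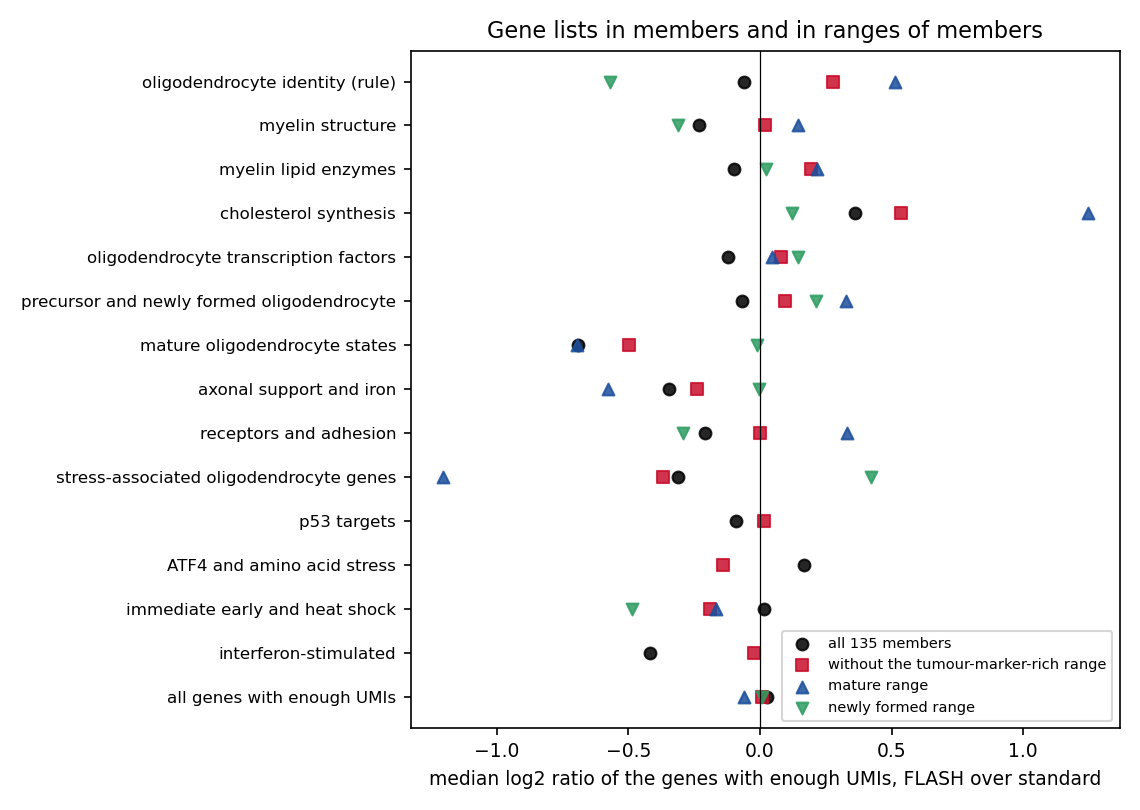
Median log2 ratio of FLASH over standard for each gene list with at least 3 genes with enough UMIs, in all members, in members without the tumour-marker-rich range, and in the mature and newly formed ranges. Cholesterol synthesis lies above 0 in all 4 sets, from 0.12 to 1.24, and the mature state list at or below -0.01 in all 4.

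Transcription factors had a median of -0.12 over 17 genes, 5 above 0 and 12 below, and 0.08 without the tumour-marker-rich range. Nkx2-2 stood at 66.0 and 34.5 CPM (-0.92), Nkx6-2, a factor of mature oligodendrocytes, at 308 and 200 (-0.62), Sox10, which drives the lineage, at 382 and 281 (-0.44), and St18 at 80.7 and 112 (0.47). The precursor and newly formed list had a median of -0.07 over 21 genes. Its one gene past 2-fold was Sox11, a factor of immature neurons, at 132 and 269 CPM (1.02), and at 0.10 without the tumour-marker-rich range. Sox11 is among the granule markers that set the limit of that range, so this fall is partly fixed by the limit. Rras2 stood at 237 and 124 CPM (-0.93), Lims2 at 156 and 87.9 (-0.82) and Lhfpl3 at 108 and 65.5 (-0.72). Receptors and adhesion genes had a median of -0.21 over 12 genes, with Plxnb3, a semaphorin receptor, at 229 and 145 CPM (-0.66), Lpar1, a receptor of lysophosphatidic acid, at 308 and 219 (-0.49), S1pr5 at -0.41 and Lgi3 at -0.32.

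Of the stress-associated list 8 genes had enough UMIs, 6 below 0 and 3 of those at least 2-fold, which were Apoe, B2m and H2-D1. Over all 3682 genes, 1733 were below 0 and 1.33% at least 2-fold lower. B2m, the light chain of MHC class I, stood at 127 and 44.8 CPM (-1.48), H2-D1, a heavy chain, at 114 and 51.7 (-1.12), and the protease Ctsb at 464 and 321 (-0.53). B2m rested on 69 and 26 UMIs and H2-D1 on 62 and 30. In the other kept barcodes B2m stood at 107 and 98.1 CPM and H2-D1 at 94.3 and 93.3. The part of free RNA in these counts was not tested. In the mature range 4 genes of the list had enough UMIs, 3 below 0 and 1 above, with a median of -1.20. In the newly formed range all 3 were above 0, with a median of 0.42. Of 32 targets of p53, 5 had enough UMIs in members, with a median of -0.09 and none 2-fold apart. Cdkn1a, the cell cycle inhibitor, stood at 55.0 and 60.3 CPM (0.13), Mdm2 at 95.4 and 81.0 (-0.23), Phlda3 at 215 and 174 (-0.30) and Bax at 273 and 257 (-0.09). Both libraries were irradiated, so these values do not measure a response to irradiation as such.

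The ATF4 list had a median of 0.17 over 8 genes, but -0.14 without the tumour-marker-rich range and -0.16 in the newly formed range. In the other kept barcodes it was 0.21, with 12 of 14 genes above 0. Asns, the asparagine synthetase, stood at 27.5 and 72.4 CPM (1.37) and Slc3a2, an amino acid carrier chain, at 77.0 and 129 (0.74), but at 0.26 and 0.18 without the tumour-marker-rich range. Immediate early and heat shock genes had a median of 0.02 over 10 genes, with Ier2 at 23.8 and 70.7 CPM (1.53) and Fos at 187 and 65.5 (-1.50). Without the tumour-marker-rich range Ier2 stood at -0.03 and Fos at -1.82, and Fos stood at 325 and 90.2 CPM in the newly formed range. Of the interferon list 3 genes had enough UMIs, 1 above 0 and 2 below. Bst2, a membrane tether of budding virus, stood at 33.0 and 87.9 CPM (1.39), with 33.3% of its UMIs in 1 barcode. Ifi27 stood at 209 and 110 CPM (-0.92).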

How the data were processed

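The deposited files hold raw UMI counts per gene and barcode, produced by the authors using Cell Ranger (version 6.1.2, per the file headers) and mm10, per the submitters' processing notes. No source used here names the annotation release. Members, ranges and gene lists were chosen with earlier results of these data known.

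Kept barcodes had at least 500 genes and at most 10% mitochondrial UMIs. Counts were summed over members per library and divided by their total (CPM), and log2 ratios of FLASH over standard had 0.5 counts added to each sum. Intervals are exact conditional binomial for ratios and Clopper-Pearson for shares (95%). With 1 library per group no test or p-value was made, and a gene was counted as apart at 2-fold or more. Named genes were the 10 highest and 10 lowest ratios, without sex-linked, immunoglobulin, haemoglobin, ribosomal protein and mitochondrial genes, the 15 genes highest in members over other barcodes, and up to 4 genes per list with the largest ratios. Some genes that this rule or a list would name are not reported here. Genes named in single ranges and for pairs of measures were chosen after their values were seen. Doublets were not removed: Scrublet (scanpy 1.11.5) set cutoffs that marked 0 and 0 barcodes and so did not work, and as an alternative the 573 and 860 barcodes with the highest scores were removed, 1 and 3 of them members. Gene positions are from GENCODE M21, which matched 30934 of 31055 features, and promoter windows from RefSeq on GRCm38.p6. Scripts ran in Python 3.11.15 with numpy 2.4.6, scipy 1.17.1 and pandas 2.3.3 and were tested on simulated data. Alternatives changed the rule sum, filters, scaling, UMI minimum and doublet and free RNA treatment. Those that select ranges, depths or barcodes without haemoglobin, also within the mature range, and the thinning, were added after seeing the data.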

Additional observations from a re-analysis of the deposited data

How the results depend on the processing

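The log2 ratio of the member share lay between -0.81 and 0.03 over its 13 alternatives, with -0.81 after thinning to 2000 UMIs. The count of genes at least 2-fold apart, 146, was 65 at a rule sum of 8, 52 at a minimum of 100 UMIs, 256 with the mean of barcode CPM, 258 with free RNA subtracted, 56 without the tumour-marker-rich range, 78 in the mature and 42 in the newly formed range. The myelin structure median, -0.23, was -0.39 and -0.053 at rule sums of 3 and 8, -0.28 at 1000 genes, -0.37 at 5% mitochondrial UMIs, -0.27 with no UMI of C1qa, C1qb, Cldn5 or Col1a2, -0.18 without the highest doublet scores, -0.20 with the restricted total, -0.27 without each gene's top barcode, -0.020 with free RNA subtracted, -0.28 at 4000 or more UMIs, -0.31 without the haemoglobin-rich barcode, 0.021 without the tumour-marker-rich range, 0.15 in the mature and -0.31 in the newly formed range. The cause was not tested.

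The sign turned for Mroh2a, at -1.28 with a rule sum of 8 and -0.027 without the highest doublet scores, for Pcgf2, at -0.11 without its top barcode, and for H2-D1, at 0.22 as a mean of barcode CPM. Without the tumour-marker-rich range it turned for Prc1 (-0.96), Hist1h1b (-0.088), Ube2c (-0.39), Mki67 (-0.96), Top2a (-0.51), Hist1h2ap (-1.88) and Ier2 (-0.027). Cholesterol synthesis kept its sign in 21 alternatives (0.11 to 1.24), as did the mature state list (-0.88 to -0.01), while Apoe kept its sign in 18 and Ptgds in 19. No paired analysis was possible because each group has 1 library. The values of the mature, newly formed and tumour-marker-rich ranges rest on 20, 32 and 29 barcodes.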

Other observations

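Among barcodes that failed the limits on genes or mitochondrial UMIs, 31 in the standard and 48 in the FLASH library had a rule sum of at least 4. Their median depth was 840 and 780.5 UMIs and their median mitochondrial share 8.35% and 10.2%. They entered no comparison.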
